A study of Oryza sativa Japonica Group and Oryza sativa Indica Group with 20 samples.

Results

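The genes described here encode the 6 subunits of the replicative helicase, MCM2 to MCM7, and the DNA sliding clamp PCNA of rice, 7 of the 54170 loci with an expression value. They were chosen by identity, as the rows of MCM2 (LOC_Os11g29380), MCM3 (LOC_Os05g39850), MCM4 (LOC_Os01g36390), MCM5 (LOC_Os02g55410), MCM6 (LOC_Os05g14590), MCM7 (LOC_Os12g37400) and PCNA (LOC_Os02g56130). The table itself gives no names, and RefSeq places 1 gene of each of these names on the chromosome that the identifier encodes, 11, 5, 1, 2, 5, 12 and 2 in this order. The study took rice through tissue culture in the japonica cultivar Tainung 67 (TNG67) and the indica cultivar IR64, both carrying no allele or transgene named in the labels. RNA was sequenced from the embryo (T0), from callus induced with the synthetic auxin 2,4-D at 2.5 mg/L in N6D medium (T1), and from callus subcultured on fresh medium of that kind (T2). The last samples were calli that did (TS) or did not (TF) regenerate after transfer to regeneration medium, which held NAA, an auxin, at 0.02 mg/L and BAP, a cytokinin, at 2 mg/L. There are 10 RNA libraries, 1 for each cultivar at each stage, and hence no replicates within a cultivar and stage. The labels do not say how many embryos or calli went into a library.

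MCM2 to MCM7 are related ATPases that assemble into a ring. In the G1 phase of the cell cycle the origin recognition complex, CDC6 and CDT1 load this ring onto DNA, which licenses the origin for a single round of replication. In S phase CDC45 and the GINS complex bind it, and the active helicase unwinds the DNA. PCNA is the clamp that holds DNA polymerases and repair enzymes on the template. In plants, as in animals, these genes are targets of E2F transcription factors and are transcribed mainly around the G1 to S transition, so their transcripts are commonly read as a sign of dividing tissue. Callus is proliferating tissue without the organs of a plant.

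Values are FPKM, that is, sequenced fragments divided by gene length and by the library's mapped total, so levels of different genes can be compared. Sequencing depth is unknown. Between 18586 and 20116 loci reached 1 FPKM in a library, and the median of the 22913 tested loci lay between 6.56 and 7.07 FPKM. The IR64 embryo library had a summed FPKM of 3792962, of which a single locus held all but 792962, while the other libraries summed to 602209 to 1063007. Its median-ratio size factor was 0.993, within the range of 0.965 to 1.05 over all libraries, so the levels of most loci in it were on the scale of the others. The labels give no cell type and the table holds locus identifiers without gene names, so the tissues were not checked against marker genes.

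All 7 genes had their lowest level in the embryo and their highest in newly induced callus, with lower values at T2 and again at TS in both cultivars. The MCM genes stood at 4.06 to 33.2 FPKM in the calli, against 0.249 to 1.51 FPKM in the embryos. PCNA stood at 28.1 to 159 FPKM in the calli, against 9.05 to 12.8 FPKM in the embryos. For every one of the 7 genes each of the 8 calli lay above both embryos, as it did for 15.6% of the tested loci.

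**Figure D1:**
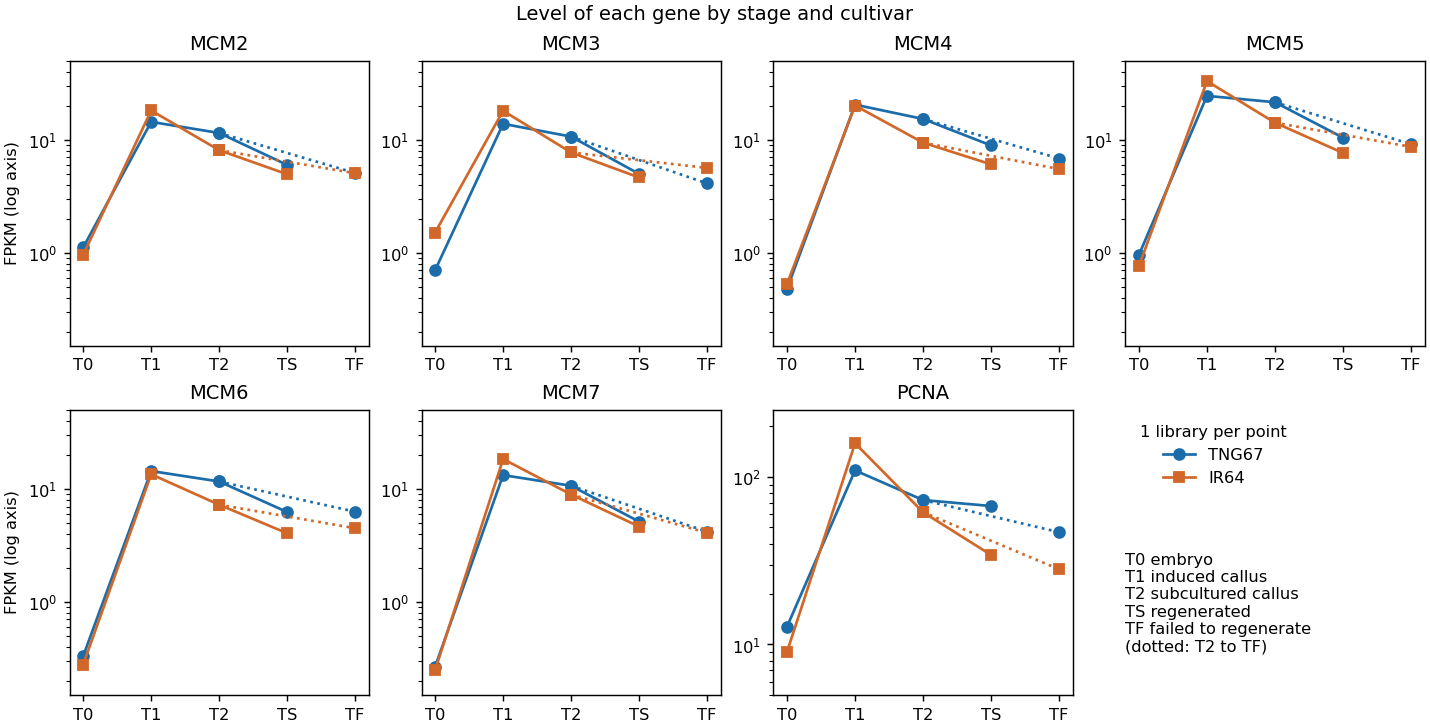
FPKM (log axis) of each gene by stage in TNG67 (circles) and IR64 (squares), 1 library per point, with a dotted line from T2 to the failed callus TF. All 7 genes are lowest at T0 and highest at T1 in both cultivars, and the TS and TF points lie below T2.

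MCM2 and MCM5 are neighbours in the ring and in yeast form the gate through which DNA enters. MCM2 was at 1.12, 14.5, 11.5, 6.02 and 5.10 FPKM at T0, T1, T2, TS and TF in TNG67, and at 0.961, 18.2, 8.12, 4.97 and 5.08 FPKM in IR64. MCM5 was at 0.962, 24.6, 21.6, 10.5 and 9.17 FPKM in TNG67, and at 0.77, 33.2, 14.2, 7.68 and 8.70 FPKM in IR64. MCM5 had the highest level of the MCM genes in all 8 calli, but not in either embryo, where MCM2 (TNG67) and MCM3 (IR64) were highest. MCM3 sits beside MCM5 and in yeast makes the contact that brings the ring to the origin recognition complex and CDC6. MCM3 was at 0.702, 13.9, 10.7, 5.0 and 4.12 FPKM in TNG67, and at 1.51, 18.1, 7.75, 4.65 and 5.65 FPKM in IR64. MCM3 was the gene whose embryo levels differed most in ratio between the cultivars, with a TNG67 over IR64 ratio of 0.464. That ratio compares 2 single libraries at low levels of unknown counting error, and it was not tested.

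MCM4, MCM6 and MCM7 form a subcomplex that unwinds DNA by itself in yeast and mammalian preparations. MCM4 was at 0.481, 20.6, 15.4, 8.95 and 6.85 FPKM in TNG67, and at 0.532, 20.2, 9.47, 6.08 and 5.53 FPKM in IR64. MCM6 was at 0.331, 14.4, 11.7, 6.26 and 6.30 FPKM in TNG67, and at 0.279, 13.5, 7.26, 4.06 and 4.50 FPKM in IR64. The T1 libraries of the cultivars were nearly level for both genes, with TNG67 over IR64 ratios of 1.02 and 1.07. MCM7 was at 0.267, 13.3, 10.7, 5.15 and 4.19 FPKM in TNG67, and at 0.249, 18.4, 8.95, 4.65 and 4.10 FPKM in IR64. It had the lowest embryo level of the 7 genes in both cultivars.

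PCNA was the most abundant of the 7 transcripts in all 10 libraries. It was at 12.8, 109, 72.7, 67.0 and 46.8 FPKM in TNG67, and at 9.05, 159, 61.6, 34.2 and 28.1 FPKM in IR64. Its embryo levels lay above 62.5% of the tested loci in TNG67 and 56.6% in IR64, whereas the MCM genes lay above 10.5 to 25.1% there.

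The stages were ordered by their mean over the cultivars. That order was T1, T2, TS, TF and T0 for MCM2, MCM4, MCM5, MCM7 and PCNA, and T1, T2, TF, TS and T0 for MCM3 and MCM6. For all 7 genes both T1 libraries lay above both T2 libraries, as they did for 11.1% of the tested loci. Both T2 libraries lay above both TS libraries for 6 of the 7, where the share of tested loci was 6.15%. PCNA was the exception, because its TNG67 TS level of 67.0 FPKM exceeded its IR64 T2 level of 61.6 FPKM. The neighbours TS and TF did not differ beyond the spread of the cultivars in 6 of 7 genes. MCM7 was the exception there, with TF at 4.19 and 4.10 FPKM and TS at 5.15 and 4.65 FPKM in TNG67 and IR64, a separation found for 13.4% of the tested loci.

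Callus induction on auxin medium was compared with the embryo first. All 7 genes rose between T0 and T1 under limma's additive model of stage and cultivar, which called 11.7% of the tested loci higher. MCM5 rose by 3.99 on the log2(FPKM + 1) scale (SE 0.29, limma adjusted p = 0.0021). MCM4 rose by 3.83 (SE 0.26, limma adjusted p = 0.002) and MCM3 by 3.03 (SE 0.30, limma adjusted p = 0.0033). The order of the genes by size of change depends on the pseudocount. With 0.1 in place of 1, MCM7 had the largest change at T1 (5.46) and PCNA the smallest (3.6). PCNA rose by 3.50 (SE 0.37, limma adjusted p = 0.0037). The median change was 3.52 over the 7 genes and 0 over all tested loci, and each of the 7 exceeded the change of at least 98.8% of the tested loci. All 7 were also at least 4-fold higher by (FPKM + 1) in each cultivar taken alone, as were 5.93% of the tested loci in TNG67 and 6.87% in IR64.

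The log2(FPKM + 1) scale understates these changes for genes below 1 FPKM, which MCM4, MCM5, MCM6 and MCM7 were in both embryos. As plain ratios of FPKM, T1 stood above T0 by 13.0-fold for MCM2, 19.8-fold for MCM3, 25.6-fold for MCM5, 42.8-fold for MCM4, 43.7-fold for MCM6 and 49.7-fold for MCM7 in TNG67. In IR64 the ratios were 12.0 for MCM3, 19.0 for MCM2, 37.9 for MCM4, 43.2 for MCM5, 48.5 for MCM6 and 74.1 for MCM7. Among the MCM genes, MCM2 and MCM3 thus had the smallest ratios, and MCM6 and MCM7 the largest, in both cultivars. PCNA stood 8.55-fold higher in TNG67 and 17.5-fold higher in IR64. These ratios rest on embryo levels at which the counting error is unknown. MCM4, MCM5, MCM6 and MCM7 passed the filter on low values, at least 1 FPKM in at least 2 libraries, through the calli alone. MCM2 reached 1 FPKM only in the TNG67 embryo and MCM3 only in the IR64 embryo, so both also needed a callus library to pass. Only PCNA passed on the embryos.

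**Figure D2:**
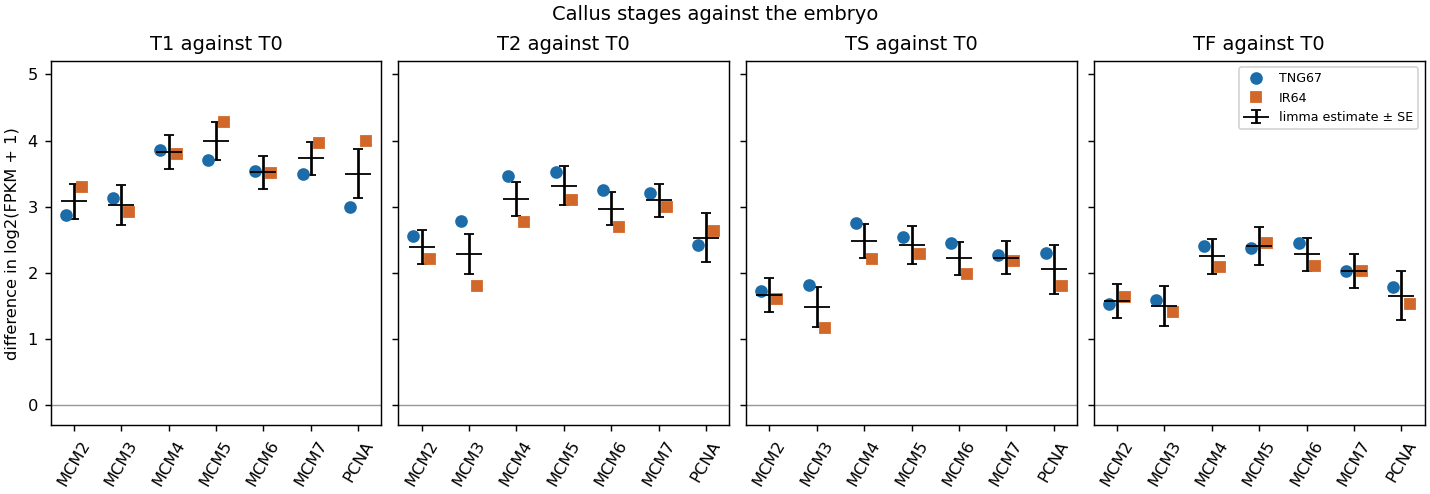
Difference in log2(FPKM + 1) between each callus stage and the embryo for each gene, in TNG67 (circles) and IR64 (squares), with limma's common estimate and its SE (black). All points lie above 0, and the estimates for TS and TF are smaller than those for T1.

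The later callus stages were also above the embryo. At T2 all 7 genes were called higher, against 8.32% of the tested loci, with changes of 2.29 for MCM3 to 3.32 for MCM5 on the log2 scale and a median of 2.97, against 0.04 over all loci. At TS all 7 were called, against 6.36% of loci, with a median change of 2.22 over the 7 and 0.07 over all loci. MCM4 rose at TS by 2.48 (SE 0.26, limma adjusted p = 0.0069) and MCM3 by 1.49 (SE 0.30, limma adjusted p = 0.027). At TF all 7 were called, against 7.12% of loci, with a median of 2.03 over the 7 and 0 over all loci. MCM5 rose at TF by 2.41 (SE 0.29, limma adjusted p = 0.0076) and MCM3 by 1.5 (SE 0.30, limma adjusted p = 0.024). With a pseudocount of 0.1, the TS changes ran from 2.11 for MCM3 to 3.8 for MCM7 and the TF changes from 1.74 for PCNA to 3.75 for MCM6. With the mean of the 4 callus stages set against the embryo, the changes ran from 2.08 for MCM3 to 3.04 for MCM5, and limma called all 7 at adjusted p of 0.0011 to 0.003, against 14.7% of loci.

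These comparisons share the same 2 embryo libraries, and limma's error, on 4 residual degrees of freedom, is how far the cultivars depart from a shared change, so it does not measure the spread between cultures. The counts at T1 and for the mean of the calli were 7 of 7 in every alternative run. The count at T2 became 0 without the TNG67 T2 library, with limma adjusted p of 0.052 to 0.077. The count at TS became 0 without TNG67 TS and 0 without IR64 TS, and that at TF became 0 without TNG67 TF and 4 without IR64 TF. In these fits the stage rests on 1 library, and the calls over all loci also dropped, to 52, 38, 0, 234 and 1228 in that order. The log2 changes of the 7 genes stayed between 1.34 and 3.06 in them.

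In single cultivars the count of genes at least 4-fold above the embryo was lower at TS and TF than at T1 and T2. In TNG67 it was 7 of 7 at T2, 5 at TS and 4 at TF, against 5.26%, 4.6% and 5.81% of the tested loci. In IR64 it was 6 at T2, 3 at TS and 4 at TF, against 6.56%, 6.31% and 6.56%. MCM3 was the gene below 4-fold in IR64 at T2, and MCM2, MCM3 and PCNA were below it in both cultivars at TF. These counts depend on the pseudocount, and with 5 in place of 1 they were 3, 2, 1 and 0 of 7 at T1, T2, TS and TF in TNG67 and 4, 1, 0 and 0 in IR64. The share of tested loci past 4-fold with a pseudocount of 5 is not given here, so those counts have no background beside them.

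Subculture on fresh auxin medium was then compared with callus induction. All 7 genes stood below T1 at T2 in both cultivars, but by amounts that differed between them. The MCM genes were at 0.747 to 0.878 of their T1 level in TNG67 and at 0.427 to 0.537 in IR64. PCNA was at 0.666 in TNG67 and 0.388 in IR64. The difference between the cultivars in this step could not be tested with 1 library each. limma called 0 of 7 genes and 0% of the tested loci, and at an unadjusted p under 0.05 it had 5 of 7 genes, against 2.85% of loci. That share of loci is itself below the cutoff of 0.05. The profiles of the 7 genes are correlated over the 8 calli, with pairwise Pearson correlations of 0.859 to 0.996, so the 5 are not separate results. PCNA differed by -0.97 on the log2(FPKM + 1) scale (SE 0.37, 95% interval -1.86 to -0.07, limma adjusted p = 1) and MCM6 by -0.55 (SE 0.25, 95% interval -1.14 to 0.04). The median over the 7 genes was -0.69, against 0.02 over all loci.

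Callus that regenerated, on the regeneration medium, was next compared with subcultured callus, and all 7 genes stood below T2 in both cultivars. The MCM genes at TS were at 0.467 to 0.583 of their T2 level in TNG67 and at 0.520 to 0.642 in IR64. PCNA was at 0.921 of its T2 level in TNG67, outside the range of the MCM genes there, and at 0.556 in IR64, within it. limma again called 0 of 7 genes and 0% of loci, and at an unadjusted p under 0.05 it had the 6 MCM genes, against 0.978% of loci. Again the share of loci is below the cutoff of 0.05, and the 6 correlated genes are not separate results. MCM5 differed by -0.89 on the log2 scale (SE 0.29, 95% interval -1.58 to -0.20), MCM7 by -0.87 (SE 0.25) and PCNA by -0.47 (SE 0.37, 95% interval -1.37 to 0.42), all at a limma adjusted p of 1. The 6 MCM estimates were at percentiles 1 to 2.9 of all tested loci, with a median over the 7 genes of -0.76 and over all loci of 0.04.

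Taken over both steps, all 7 genes had T1 above T2 and T2 above TS in both cultivars, an order found for 8.77% of the tested loci. At TS the MCM genes were at 0.360 to 0.435 of their T1 level in TNG67 and at 0.231 to 0.301 in IR64. PCNA at TS was at 0.613 of its T1 level in TNG67 and at 0.216 in IR64. In tissue with several kinds of cells, fewer dividing cells and less of these transcripts per cell cannot be told apart.

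**Figure D3:**
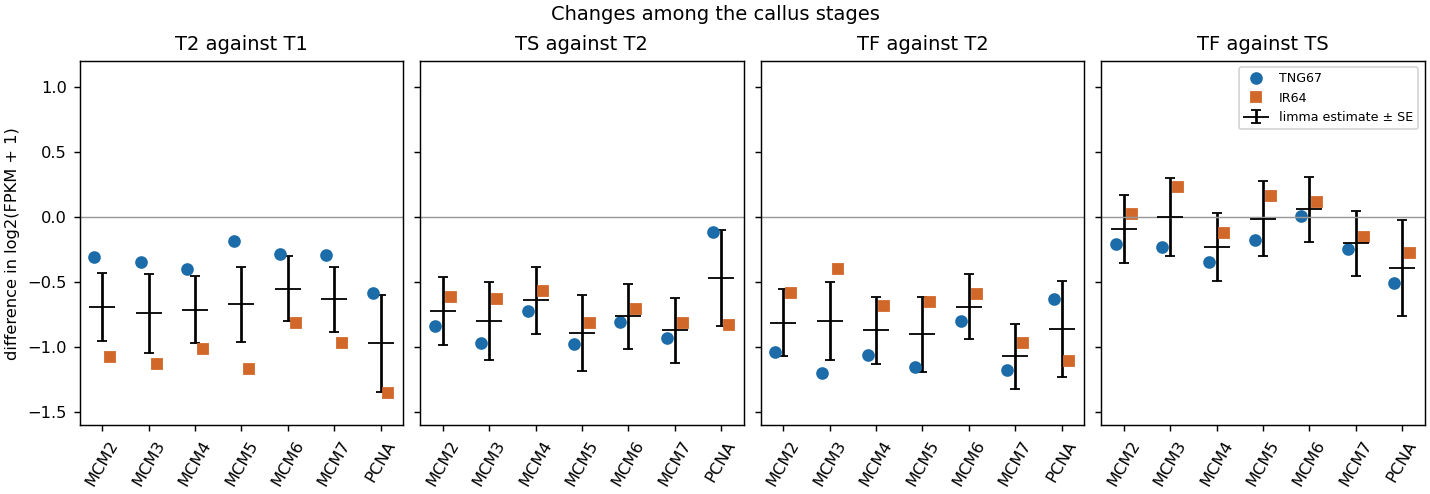
Difference in log2(FPKM + 1) between callus stages for each gene in TNG67 (circles) and IR64 (squares), with limma's common estimate and its SE (black). All points of T2 against T1, TS against T2 and TF against T2 lie below 0, and those of TF against TS lie on both sides of it.

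Failed callus also stood below subcultured callus in all 7 genes of both cultivars. How many of the tested loci had this order was not counted, so how unusual it is remains unknown. Against T2, the MCM genes at TF were at 0.384 to 0.540 in TNG67 and at 0.458 to 0.730 in IR64, and PCNA was at 0.643 in TNG67 and 0.457 in IR64. limma called 0 of 7 genes and 0% of loci for TF against T2, with 6 of 7 genes at an unadjusted p under 0.05, against 4.4% of loci. Here too the share of loci is below the cutoff of 0.05, and the 6 correlated genes are not separate results. MCM7 differed by -1.07 on the log2 scale (SE 0.25, 95% interval -1.67 to -0.47, limma adjusted p = 0.84). The median over the 7 genes was -0.86, against -0.05 over all loci.

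Successful and failed calli were on the same medium, so that comparing them asks what differed with regeneration. limma called 0 of 7 genes and 0% of loci, and at an unadjusted p under 0.05 it had 0 of 7, against 4.19% of loci. The median over the 7 genes was -0.09, close to the -0.08 over all loci. TF over TS ratios in TNG67 ran from 0.698 for PCNA to 1.01 for MCM6, with 6 of 7 genes lower in TF. Those in IR64 ran from 0.821 for PCNA to 1.22 for MCM3, with 3 of 7 lower. The median log2(FPKM + 1) difference over all tested loci was -0.08 in each cultivar, which is not apart from library scale. Median-ratio size factors were 1.047 at TS and 0.989 at TF in TNG67, and 1.022 and 0.965 in IR64. Changes of at least 4-fold went mostly the other way, with 556 loci higher and 138 lower in TF in TNG67, and 613 and 101 in IR64. With median-ratio scaling the limma change was -0.02 for MCM2, 0.07 for MCM3 and -0.16 for MCM4. The median over the 7 genes was -0.23 in TNG67 and 0.03 in IR64. PCNA differed by -0.39 on the log2 scale (SE 0.37, 95% interval -1.29 to 0.50), and MCM3 was at 0.00 (95% interval -0.72 to 0.73). The lower ends of the 7 intervals ran from -0.53 to -1.29, so these values do not show that the outcomes are alike.

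The cultivars were compared over all 5 stages. limma called none of the 7 genes, against 27.3% of the tested loci, and had 0 of 7 at an unadjusted p under 0.05, against 42.1% of loci. PCNA differed by 0.36 between TNG67 and IR64 on the log2 scale (SE 0.23, 95% interval -0.20 to 0.93, limma adjusted p = 0.28), MCM6 by 0.34 (SE 0.16, limma adjusted p = 0.15) and MCM7 by -0.01 (SE 0.16, limma adjusted p = 0.97). The direction varied with the stage, in a single pair of libraries each, and was not tested. Median log2(FPKM + 1) differences of TNG67 over IR64 for the 7 genes were 0.06, -0.36, 0.46, 0.41 and 0.07 at T0, T1, T2, TS and TF. Over all tested loci the medians were 0.08, -0.08, 0, 0.03 and 0. The share of all loci in each direction was not counted, and the profiles of the 7 genes are correlated. TNG67 was below IR64 in 5 of 7 genes at T1, with ratios of 0.688 for PCNA to 0.793 for MCM2 among the 5. TNG67 was above IR64 in 7 of 7 genes at T2, by 1.18-fold for PCNA to 1.62-fold for MCM4, and in 7 of 7 at TS, by 1.08-fold for MCM3 to 1.96-fold for PCNA. At TF it was above in 6 of 7, with ratios of 0.728 for MCM3 to 1.66 for PCNA, and in the embryo in 5 of 7. A shift of the cultivar difference between stages enters this model as error, and the IR64 reads, like the TNG67 reads, were placed on a japonica genome.

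Ratios between these genes within a library do not depend on how the library was scaled. The shares of 5 of the 6 MCM genes in their summed FPKM did not overlap between the 8 calli and the embryos, although they also varied among the calli. MCM2 held 14.1 to 15.5% of the summed MCM FPKM in the calli, against 22.3 to 28.9% in the embryos. MCM3 held 11.5 to 16.9% in the calli and 18.2 to 35.2% in the embryos. MCM4, MCM6 and MCM7 leaned the other way, at 16.5 to 21.4%, 11.1 to 17.6% and 11.7 to 16.0% in the calli, against 12.4 to 12.5%, 6.5 to 8.6% and 5.8 to 6.9% in the embryos. MCM5 overlapped, at 23.9 to 27.3% and 17.9 to 24.9%. The most abundant MCM transcript was 1.85 to 2.46 times the least abundant in the calli, and 4.17 times (TNG67) and 6.09 times (IR64) in the embryos. The summed MCM FPKM behind the embryo shares was 3.86 in TNG67 and 4.31 in IR64, against 32.1 to 122 in the calli. The counting error at these embryo levels is unknown. Shares of one sum are tied to each other, so the 5 separations are not independent. How often such shares separate in other sets of loci was not counted.

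PCNA relative to the mean of the 6 MCM genes was lower in the calli, at 5.03 to 9.60, than in the embryos, at 19.9 in TNG67 and 12.6 in IR64. Among the TNG67 calli it was 6.47 at T1, 5.35 at T2, 9.60 at TS and 7.86 at TF. In IR64 it was 7.82, 6.62, 6.4 and 5.03 at the same stages. The TNG67 TS library thus had the highest ratio of the calli, from a PCNA level near that of T2 and MCM levels well below it, whereas in IR64 the ratio was lower at each stage in this listing.

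**Figure D4:**
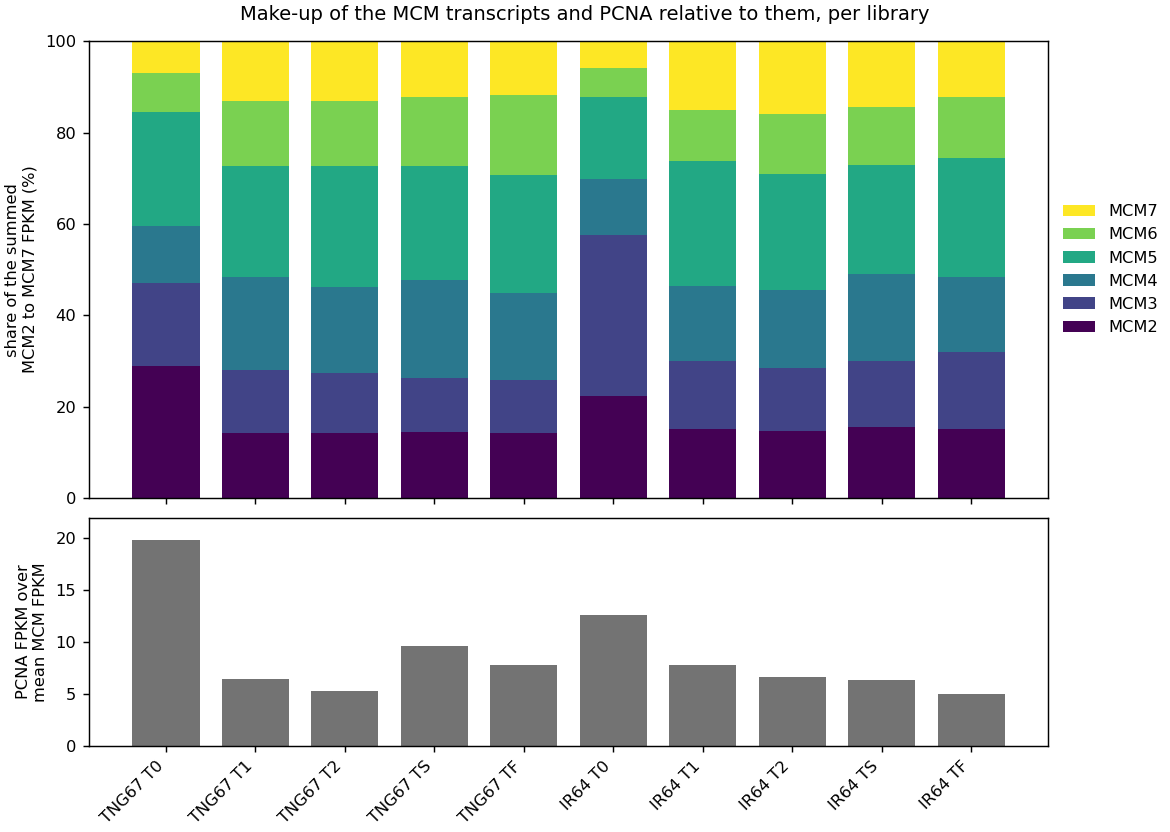
Top, share of each MCM gene in the summed FPKM of MCM2 to MCM7 in each library. Bottom, PCNA FPKM over the mean MCM FPKM. The 2 embryo libraries differ from the 8 calli in both panels, with larger MCM2 and MCM3 shares and PCNA ratios of 19.9 and 12.6.

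The profiles of the 7 genes over the 10 libraries were close to each other. Pearson correlations of log2(FPKM + 1) were 0.953 to 0.996 over the 15 pairs of MCM genes and 0.932 to 0.974 between PCNA and the MCM genes. Over the 8 calli alone they were 0.907 to 0.996 and 0.859 to 0.944. Each gene was also set against the mean profile of the other 6 among 14300 loci with a mean of at least 5 FPKM. MCM2 and MCM5 ranked 2, MCM7 ranked 3, MCM4 ranked 4 and MCM6 ranked 8 in likeness, while MCM3 ranked 36 and PCNA 41. Over the calli alone, among 14298 loci, MCM2 ranked 1, MCM5 2, MCM4 7, MCM7 8, MCM6 28, MCM3 31 and PCNA 83. These correlations are descriptions over libraries that all of these genes share, with unknown depth.

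The 2 loci outside the set with the most similar profile were LOC_Os05g29010 on chromosome 5 and LOC_Os02g10220 on chromosome 2, with correlations of 0.998 and 0.996 with the mean profile of the 7 genes over the 10 libraries. LOC_Os05g29010 was at 0.326, 13.4, 11.1, 6.74 and 4.50 FPKM at T0, T1, T2, TS and TF in TNG67, and at 0.373, 18.2, 8.45, 4.27 and 4.63 FPKM in IR64. LOC_Os02g10220 was at 2.40, 34.9, 25.1, 16.6 and 13.0 FPKM in TNG67, and at 2.52, 42.0, 21.9, 14.1 and 13.1 FPKM in IR64. The sources used here give neither locus a name.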

How the data were processed

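The deposited values were FPKM per locus for 10 RNA libraries. Per the labels' protocols, libraries were made from 100 ng of RNA, reads were checked with FastQC and mapped with Bowtie (up to 2 mismatches, unique alignments) to IRGSP-1.0, the Nipponbare assembly, and the authors made FPKM values per gene with TopHat. Versions, gene models and strand: not given in the sources used here. Because Nipponbare is japonica, IR64 reads may map less well where the cultivars differ. Bisulfite data (10 libraries) were not analysed here.

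The table had 55166 rows for 54170 loci. Rows of 968 loci present more than once were summed, and each of the 7 genes had 1 row. Depth is unknown: a common step of ratios among values up to 0.2 FPKM held over 10% in 1 bin for only 1 of 45 pairs of libraries, so whole reads were not recovered. The test took 22913 loci, those that reached 1 FPKM in 2 or more libraries. limma 3.58.1 in R 4.3.3 was run across all of these loci on log2(FPKM + 1) with additive stage and cultivar terms and an intensity trend, with Benjamini-Hochberg adjustment at 0.05 within each comparison. The code was also run on simulated libraries with known changes and independent noise. That simulation had no cultivar effect, so it does not bear on the error of this design. Within a cultivar, (FPKM + 1) ratios of at least 4, the cutoff the labels give, were counted with no p-value. Cultivar is the pairing across stages, since each library of a stage comes from another cultivar. Other values used Python 3.11.15, pandas 2.3.3, numpy 2.4.6 and matplotlib 3.10.9.

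The 7 genes, the comparisons and the lists were chosen with earlier results of these data known. The table pairs identifiers with no names. The RefSeq table (assembly ASM3414082v1) holds 1 gene named for each of the 7, on the chromosome that the locus identifier encodes in 7 of 7 cases. It joins 0 identifiers of the table, so a list of other replication genes (origin recognition complex, CDC6, CDT1, GINS and others) could not be placed and gave no result. Promoter and protein sequences were not analysed here. The loci named were the 7 genes and the 2 other loci, at a mean of at least 5 FPKM, with the most similar profile.

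Alternatives were a 2-fold cutoff, loci on a single row, the 8 calli alone, omission of each library, robust eBayes, omission of the trend, omission of the cultivar as replicate block, quantile normalization, median-ratio scaling, a mean FPKM of 5 or more as filter, absence of any filter, and pseudocounts of 0.1 and 5.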

Additional observations from a re-analysis of the deposited data

Results flagged for a closer look

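With 1 library per cultivar and stage, the results listed here are contrasts in which 1 cultivar or stage went one way and the other went the opposite way on the log2(FPKM + 1) scale. None of these differences was tested. For TF against TS, TNG67 minus IR64 was -0.23 for MCM2 (-0.20 in TNG67 and 0.03 in IR64), -0.47 for MCM3 (-0.23 and 0.24) and -0.34 for MCM5 (-0.18 and 0.16).

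For TNG67 against IR64, the difference at T1 minus that at T0 was -0.43 for MCM2, 0.07 for MCM4, -0.57 for MCM5, -0.46 for MCM7 and -0.99 for PCNA. The difference at T2 minus that at T1 was 0.77 for MCM2, 0.78 for MCM3, 0.99 for MCM5, 0.68 for MCM7 and 0.77 for PCNA, with TNG67 below IR64 at T1 and above it at T2 for all 5. For MCM3 the difference at TF minus that at TS was -0.47, with -0.38 at TF and 0.09 at TS.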

How the results depend on the processing

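Of 288 recomputed counts and correlations, 266 stayed within 1.5 times of the reported value or, for the correlation, within 0.05 of it. A fall from 7 to 5 genes counts as within 1.5 times. The limma count of the 7 genes stayed at 7 for T1 and for the mean of the calli, and at 0 for the comparisons among calli and between cultivars, in every alternative run. Among the calli limma called at most 2 loci of the whole table in any run, so those counts of 0 could hardly move and add little to the 266. Leaving out 1 library gave 0 to 7 genes at T2, TS and TF against T0, with 0 without TNG67 T2, TNG67 TS, IR64 TS and TNG67 TF and 4 without IR64 TF. Without the cultivar as replicate block the counts at TS and TF were 5 of 7, MCM3 and PCNA being lost at both (limma adjusted p of 0.053 to 0.082). The block changed no other call of the 7 genes. Calls over all tested loci also fell without it, from 3555 to 712 at TS and from 4193 to 918 at TF. Without the filter 6 were called at TF (PCNA, limma adjusted p = 0.056).

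The count of genes at least 4-fold higher than in the embryo became, with a pseudocount of 5, 3 at T1, 2 at T2, 1 at TS and 0 at TF in TNG67, and 4, 1, 0 and 0 in IR64. With a pseudocount of 0.1 it was 5 at TS in IR64, and after quantile normalization it was 0 at TS and 1 at TF in IR64. At 2-fold it was 7 at TF in TNG67 and 7 at TS and TF in IR64. At 2-fold 5 of 7 genes were lower at T2 than T1 in IR64, 5 lower at TF than T2 in TNG67 and 1 in IR64, against 0 at 4-fold. The shares of tested loci past the cutoff under these alternative settings are not given here. The counts therefore show how they move with the setting, and not how unusual the 7 genes are at it.

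Of 1435 recomputed log2 changes of single genes, 1374 kept their direction and call and 50 lost their call. Against the embryo, MCM3 lost its call in 8 of 20 alternative runs at TS and 5 at TF. PCNA lost its call in 5 at TS and 8 at TF, and the other 5 genes in at most 2 runs of a comparison. The remaining 11 changes turned sign, all of these from a value of at most 0.06. For TF against TS these were MCM5 with median-ratio scaling (0.07) and quantile normalization (0.03), and, with single libraries left out, MCM3 (-0.15 to 0.16, below 0 without IR64 TF at -0.14 and without IR64 TS), MCM5 (-0.16 to 0.15, above 0 without TNG67 TF at 0.05 and without TNG67 TS) and MCM6 (-0.05 to 0.18, below 0 without IR64 TS). For TNG67 against IR64 it was MCM7 at a pseudocount of 0.1 (0.01), after quantile normalization (0.02) and with single libraries left out (-0.07 to 0.10, above 0 without TNG67 T1 or IR64 T1). The causes were not tested. Depth is unknown, so the counting error of every value is unknown.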
